A study of Mus musculus with 6 samples.

Results

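Genes of the nuclear pore and of nuclear transport were described in B cells stimulated through TLR7. They were all genes in the deposited tables whose symbol begins with Nup and a digit (nucleoporins), with Ipo, Tnpo, Kpna or Kpnb (importins, the import receptors and adaptors) or with Xpo (exportins, the export receptors). The rule used symbols only, and no measured value. It found 45 of 23420 genes, of which 43 had at least 0.5 CPM (read counts scaled by library size, here a log2 value of -1) in at least 3 of 6 libraries. They were 21 nucleoporins, 16 importins and 6 exportins, among 11844 genes kept by the same filter. The 2 genes below it were Kpna7, listed at 0.0279 to 0.0313 CPM with no difference between the groups, and Nup62cl, at 0.0263 to 0.291 CPM.

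RNA was sequenced from bead-purified splenic B cells of TLR9-/- MRL/lpr (MRL.Faslpr) mice aged 5 to 7 weeks, which were male per the study's methods. The lpr allele of Fas gives this strain a lupus-like disease. The question taken here was how these B cells, all TLR9-/-, respond to a TLR7 agonist. Cells from 3 mice, in lots of 5M, were kept for 4 h either unstimulated or with CL097 at 5 µg/ml, an imidazoquinoline agonist of TLR7 (3 libraries each, numbered 1 to 3). Both groups lack TLR9, have wild-type TLR7 and carry lpr, no TLR9-sufficient library was analysed here, and the numbers are taken as pairs of an unstimulated and a CL097 library.

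The nuclear pore is a ring-shaped channel through the nuclear envelope, built from repeated copies of nucleoporins in an outer ring, an inner ring, a central channel, cytoplasmic filaments and a nuclear basket. Large cargo crosses it bound to receptors of the karyopherin beta family: importins bind cargo in the cytoplasm and release it when they meet Ran-GTP in the nucleus, while exportins bind cargo together with Ran-GTP and release it once GTP is hydrolysed outside. Activated B cells enlarge and raise transcription and ribosome assembly, which sends transcription factors and ribosomal proteins inward and RNA and ribosomal subunits outward.

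Short promoter stretches are printed because several of the genes that changed share a 6-base sequence near their start. In RefSeq promoter windows of build GRCm38.p6, from 250 bases before to 50 after a start site, 33 of the 43 kept genes had 40 windows. The E-box CACGTG, which reads the same on both strands and is a known site of Myc, Usf and other basic helix-loop-helix factors, lay in the windows of 7 genes. Each stretch holds 12 bases on either side of the E-box, which is in capitals, and reads 5′ to 3′ on the strand of the gene.
Ipo4, chr14:55635653-55635682, minus strand: tgtcggagtctcCACGTGccgatcctcccc
Ipo7, chr7:110018166-110018195, plus strand: gtgggagccagcCACGTGggccgtgtccgc
Tnpo2, chr8:85036726-85036755, plus strand: tacttattctctCACGTGactcaacttggc
Tnpo2, chr8:85036765-85036794, plus strand: tctgtgccagatCACGTGtgagtgcttcgc
Xpot, chr10:121626546-121626575, minus strand: agctccagggagCACGTGcgcggtcctcct
Nup54, chr5:92435282-92435311, minus strand: gacgccccacacCACGTGaaagccacaaac
Nup188, chr2:30286338-30286367, plus strand: cacgcccaccatCACGTGgcggaagcccac
Nup188, chr2:30286380-30286409, plus strand: gaggatcccagtCACGTGggtacggcgcat
Nup93, chr8:94214377-94214406, plus strand: gtcaactccaacCACGTGggcgggagcagg

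Coverage of the libraries cannot be compared from the deposited values. Taken out of the log2, these summed to 991008 to 999204 CPM per library, and 10906 to 10997 genes were at 1 CPM or more. Both are alike by construction, since CPM scales to library size and quantile normalization gives libraries much the same set of values. B cell markers (Cd79a, Cd79b, Ms4a1, Pax5, Cd22) summed to 5180 to 5850 CPM in unstimulated and 1790 to 2200 CPM in CL097 libraries, and 4 of the 5 fell. T cell markers summed to 4.24 to 9.27 CPM (1 of 3 tested rose, Cd8a, which passed the filter only through its CL097 libraries) and natural killer cell markers to 4.20 to 7.43 CPM (1 of 3 fell), with Cd3d, Cd3e, Ncr1 and Gzma under 0.5 CPM in every library. Monocyte and macrophage markers summed to 76.8 to 346 CPM unstimulated and 45.5 to 151 CPM with CL097, and 4 of 5 fell. Plasma cell markers summed to 192 to 234 and 103 to 120 CPM (2 of 3 fell), and neutrophil markers to 5.48 to 13.8 and 4.74 to 10.8 CPM (2 of 4 fell). Erythroid markers (Alas2, Slc4a1) stood apart by number: they summed to 22.5 and 38.5 CPM in the libraries numbered 1 and to between 699 and 1700 CPM in those numbered 2 and 3. Of these 2 genes 1 rose after CL097, Slc4a1 (log2 fold change 1.32, SE 0.13). Cycling-cell markers summed to 422 CPM in CL097 library 1, 1050 CPM in 2 and 1440 CPM in 3, against 584, 510 and 481 CPM in the unstimulated libraries, and 3 of 7 (Ccnb1, Cdk1, Birc5) rose. The part of these cells in the results was not tested.

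Most of the transport genes were higher after CL097. By a paired fit in limma, 29 of the 43 kept genes rose (Benjamini-Hochberg adjusted p under 0.05 and a log2 fold change over 0.5), 0 fell and 14 were not called, where 25.9% of all genes tested rose and 25.8% fell. At the adjusted p alone, whatever the size of the change, 35 were higher and 1 was lower, against 33.6% and 33.0% of all genes. The 3 CL097 libraries lay above all 3 unstimulated ones for 37 genes and below them for 1, where 33.4% and 32.4% of all genes did so. The median log2 fold change of the 43 was 0.82 and that of all genes 0.00. In bulk RNA, fewer cells of a type and less RNA per cell cannot be told apart, and because the deposited values were quantile normalized a change is one relative to the rest of the genes in that library.

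The change was of like size in each pair: the median over the 43 genes was 0.85 in pair 1, 0.80 in pair 2 and 0.76 in pair 3. Pair 1 had the fewest erythroid transcripts and a lower sum of cycling markers after CL097, and pairs 2 and 3 a higher one. Whether such cells have a part in these medians was not tested. One of the 29 genes, Nup62-il4i1, passed the filter only through its CL097 libraries. Without it, 28 of 42 rose and the median was 0.80.

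**Figure D1:**
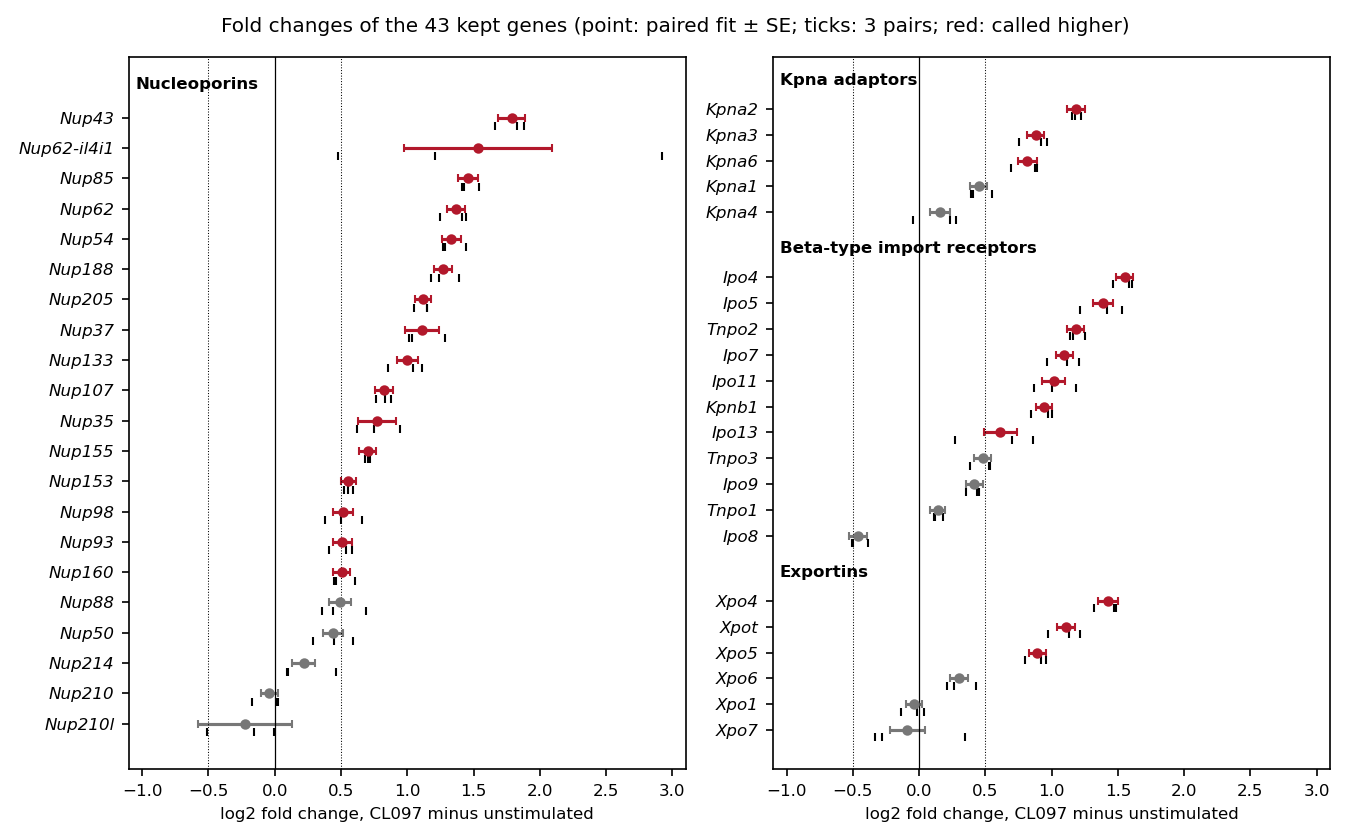
Log2 fold change (CL097 minus unstimulated) of the 43 kept genes by class. Points are the paired fit with its standard error, ticks the 3 pairs, red the 29 genes called higher and dotted lines the fold limit of 0.5 in either direction. Of the nucleoporins 16 of 21 are red, of the Kpna adaptors 3 of 5, of the other import receptors 7 of 11 and of the exportins 3 of 6, and no gene is called lower.

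The classes are set side by side by their counts and medians. Of 21 nucleoporins 16 rose (76.2%, median log2 fold change 0.77), of 16 importins 10 rose (62.5%, median 0.85), and of 6 exportins 3 rose (50%, median 0.60). Each share stands beside the 25.9% of all genes. With Nup62-il4i1 left out, 15 of 20 nucleoporins rose, with a median of 0.74. In single pairs the median of the nucleoporins was 0.70 to 0.75, that of the importins 0.81 to 0.90 and that of the exportins 0.50 to 0.68, so the exportins were lowest and the importins highest in each pair. The classes were not tested against each other.

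**Figure D2:**
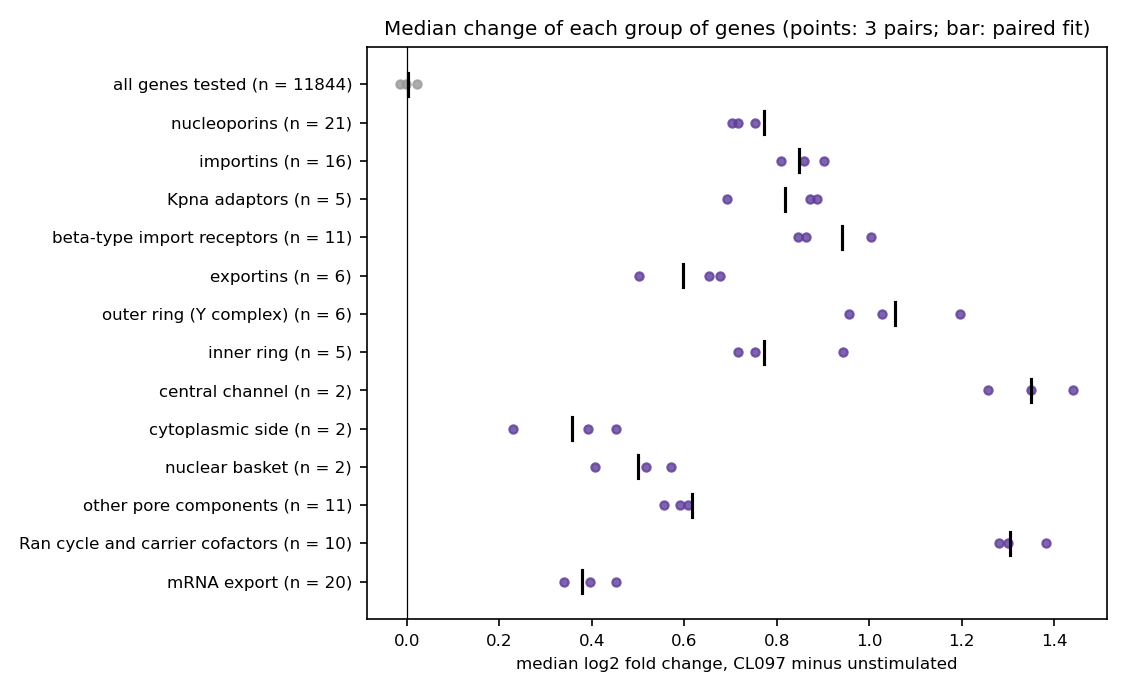
Median log2 fold change (CL097 minus unstimulated) of each group of genes, with the number tested. Points are the medians of the 3 pairs and bars those of the paired fit. Groups of 1 gene, Nup98 (both faces) and Nup210 (membrane, -0.04), are not drawn. All genes tested sit at 0, the groups of transport genes drawn between 0.36 and 1.35, with the central channel highest and the cytoplasmic side lowest. Groups by place in the pore hold only genes taken by the symbol rule.

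Among the importins, the central receptor is importin beta. Kpnb1 (chromosome 11, 97159714 to 97187881, minus strand, in mm10) encodes importin beta 1, which carries cargo alone or through an importin alpha adaptor. Its level was 592, 515 and 527 CPM in unstimulated libraries 1 to 3 and 1064, 1032 and 1037 CPM in the CL097 libraries. The groups were far apart and each was tight. It rose 1.92-fold (log2 fold change 0.94, SE 0.06, limma adjusted p = 1.07e-05).

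Ipo4 had the largest increase of the import receptors. It encodes importin 4, a carrier of histones and ribosomal proteins, at chromosome 14, 55625400 to 55635957, minus strand. Ipo4 was at 95.6, 89.0 and 82.8 CPM in unstimulated cells and 264, 267 and 252 CPM after CL097, with no overlap. The rise was 2.93-fold (log2 fold change 1.55, SE 0.06, limma adjusted p = 2.12e-06). Its level is uncertain, since 55.3% of its exon bases also belong to the annotated gene Gm49378 on the same strand.

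Ipo5, importin 5, carries ribosomal proteins and core histones (chromosome 14, 120911224 to 120947999, plus strand). It went from 398, 325 and 356 CPM to 922, 942 and 950.1 CPM, which again left a wide gap between the groups. The log2 fold change was 1.39 (SE 0.07, limma adjusted p = 5.21e-06). Tnpo2, a transportin close to Tnpo1 (chromosome 8, 85036915 to 85057583, plus strand), was at 71.5, 74.7 and 71.0 CPM unstimulated and 170.0, 164 and 159 CPM with CL097. All 3 CL097 libraries were above all unstimulated ones, and the log2 fold change was 1.18 (SE 0.07, limma adjusted p = 6.84e-06).

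Ipo7, Ipo11 and Ipo13 also rose. Ipo7, a carrier of ribosomal proteins and of histone H1 together with importin beta, had a log2 fold change of 1.10 (SE 0.07). Ipo11, an importer of ubiquitin-conjugating enzymes, had one of 1.02 (SE 0.09). Ipo13, which carries some cargo inward and other cargo outward, had one of 0.61 (SE 0.12, limma adjusted p = 0.00342), a call that was lost without a filter on low values (adjusted p = 0.0855) and without replicate 3 (log2 fold change 0.49).

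Other import receptors did not pass the fold limit. Tnpo3, which carries serine and arginine rich splicing factors, had a log2 fold change of 0.48 (SE 0.07) and Ipo9, a histone and actin importer, one of 0.42 (SE 0.06). Without replicate 3, Tnpo3 was called higher at 0.53. Tnpo1, transportin 1, the receptor of proteins such as hnRNP A1, was at 257, 244 and 259 CPM unstimulated and 278, 277 and 282 CPM after CL097. The groups did not overlap but lay close together, with a log2 fold change of 0.14 (SE 0.06, limma adjusted p = 0.0655). Ipo8 alone was lower in all CL097 libraries. It encodes the relative of importin 7 that is known for carrying Argonaute and Smad proteins. Its values were 103, 98.7 and 97.6 CPM against 79.0, 69.6 and 69.1 CPM, a log2 fold change of -0.46 (SE 0.07, limma adjusted p = 0.000888). This is inside the fold limit of 0.5, and without replicate 1 the value was -0.501 and Ipo8 was called lower.

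The closest relatives moved unequally. Ipo7 had a log2 fold change of 1.10 and Ipo8 one of -0.46, and Tnpo2 had one of 1.18 and Tnpo1 one of 0.14. The differences within these pairs of relatives were not tested.

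**Figure D3:**
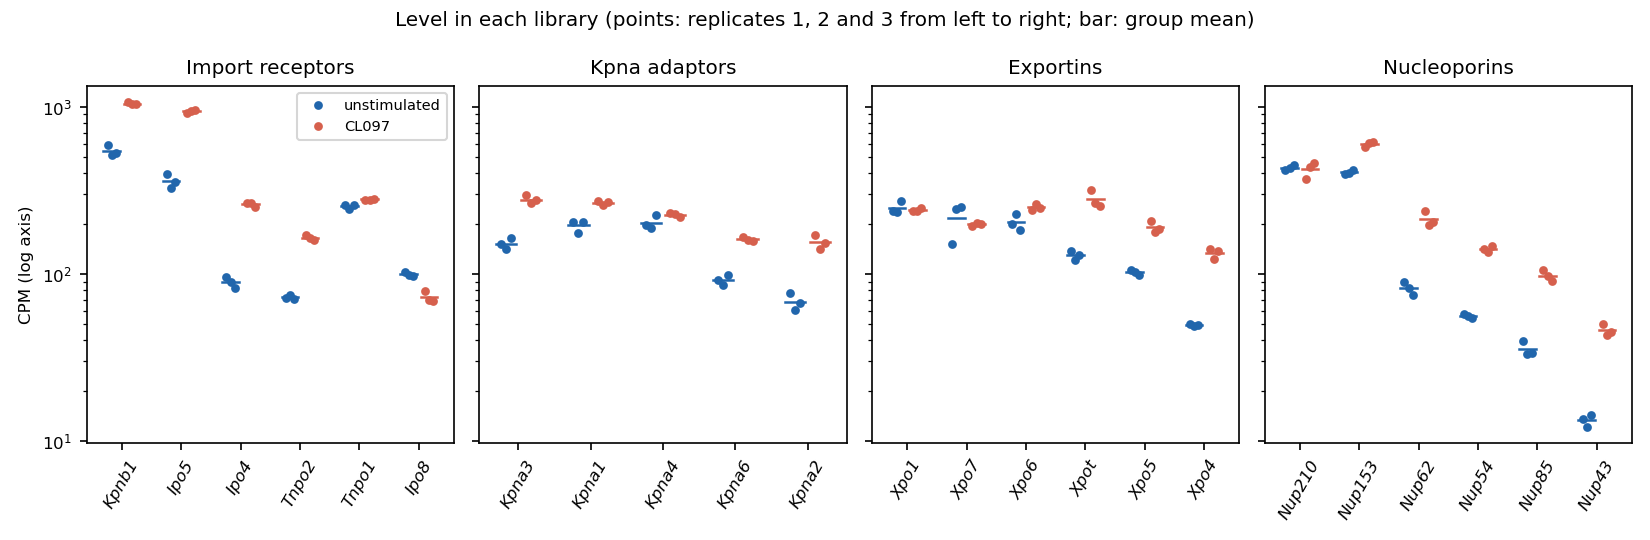
CPM on a log axis in each library for import receptors, Kpna adaptors, exportins and nucleoporins. Points are replicates 1, 2 and 3 from left to right, blue unstimulated and red CL097, and bars are group means. The groups separate for Kpnb1, Ipo5, Ipo4 and Xpo4 and overlap for Xpo1, Xpo7, Kpna4 and Nup210.

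Kpna genes encode importin alpha, the adaptors that bind classical nuclear localization signals and link cargo to importin beta. Kpna2 rose most, from 77.1, 60.8 and 67.3 CPM to 171, 142 and 152 CPM (chromosome 11, 106988629 to 106999541, minus strand). The CL097 libraries all lay above the unstimulated ones, and the log2 fold change was 1.18 (SE 0.07, limma adjusted p = 6.26e-06). Reads of Kpna2 could be shared with near-identical copies elsewhere, such as the processed pseudogene Gm10259 (99.8% identity over 1590 bases) and Gm10184 (99.9%), so its level is uncertain.

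Kpna3, which with Kpna4 is known from human cells to import NF-κB subunits, went from 151, 141 and 163 CPM to 295, 265 and 275 CPM. Kpna6, an adaptor close to Kpna1, went from 91.5, 86.2 and 98.0 CPM to 167, 159 and 158 CPM. Neither gene had overlapping groups. Their log2 fold changes were 0.88 (SE 0.07) for Kpna3 and 0.82 (SE 0.07) for Kpna6, and both rose.

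The other 2 adaptors were not called. Kpna1, an adaptor of the same subfamily as Kpna6, had 206, 176 and 205 CPM unstimulated and 273, 259 and 269 CPM with CL097. These groups were apart, yet the log2 fold change was 0.45 (SE 0.06, limma adjusted p = 0.000601), under the fold limit. Kpna4, the closest relative of Kpna3, was at 195, 187 and 226 CPM and at 229.9, 227 and 219 CPM. Unstimulated library 3 lay inside the range of the CL097 libraries, and the log2 fold change was 0.16 (SE 0.08, limma adjusted p = 0.116).

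Of the exportins, the general receptor for proteins with a leucine-rich export signal had overlapping groups. Xpo1 (chromosome 11, 23256041 to 23298249, plus strand), also called CRM1, was at 239, 233 and 274 CPM in unstimulated cells and 237, 239 and 249 CPM after CL097. The CL097 values lay within the unstimulated range. The log2 fold change was -0.04 (SE 0.06, limma adjusted p = 0.613).

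The 3 exportins that rose carry narrower cargo. Xpo4 exports proteins such as the translation factor eIF5A (chromosome 14, 57577521 to 57665430, minus strand), and went from 50.1, 48.9 and 49.5 CPM to 140.4, 122 and 137 CPM. The unstimulated libraries were nearly equal and the CL097 libraries far above, with a log2 fold change of 1.43 (SE 0.07, limma adjusted p = 4.68e-06). Xpot, the tRNA exporter (chromosome 10, 121587380 to 121626332, minus strand), went from 138, 122 and 130 CPM to 319, 267 and 255 CPM, highest in CL097 library 1. Its log2 fold change was 1.11 (SE 0.07, limma adjusted p = 1.08e-05).

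Xpo5 exports pre-miRNA hairpins (chromosome 17, 46202782 to 46243598, plus strand). It was at 106, 103 and 97.9 CPM and rose to 206, 179 and 186 CPM, without overlap. The log2 fold change was 0.89 (SE 0.07, limma adjusted p = 2.46e-05). Xpot shares 96.2% of 2525 aligned bases with the pseudogene Gm7389 and Xpo4 99.1% of 576 with Gm17873, so reads of these could be divided. The same holds for Nup54 (Gm15790, 98.0% of 1254 bases), Tnpo1 (Gm6493, 97.3% of 2656), Ipo5 (Gm14857, 94.0% of 2736), Nup50 (Gm13435, 92.8% of 1031) and Nup88 (Gm19801, 91.3% of 597).

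The remaining exportins were not called. Xpo6, the actin exporter, had a log2 fold change of 0.30 (SE 0.07). Xpo7, an exporter best known from maturing red cells, was at 152, 245 and 251 CPM unstimulated and at 193, 203 and 199 CPM with CL097, so the groups overlapped. Its log2 fold change was -0.09 (SE 0.13), with 0.35 in pair 1, -0.28 in pair 2 and -0.33 in pair 3. Without replicate 1 the value was -0.31 (limma adjusted p = 0.00292), inside the fold limit. Unstimulated library 1, the one low in Xpo7, was also the one at 22.5 CPM of erythroid markers against 699 and 816 CPM in the others. In CL097 libraries the erythroid sums were 38.5, 960 and 1700 CPM while Xpo7 varied little. The part of erythroid RNA in these values was not tested.

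Nucleoporins were counted by their place in the pore. All 6 kept genes of the outer ring, or Y complex, the scaffold that coats the membrane, rose (median log2 fold change 1.06). All 5 of the inner ring rose (median 0.77), as did both kept genes of the central channel, Nup54 and Nup62 (median 1.35). Of the cytoplasmic side 0 of 2 rose (median 0.36), and of the nuclear basket 1 of 2 (median 0.50). These shares stand beside 25.9% of all genes, and the groups of the pore were not tested against each other. The groups hold only genes taken by the symbol rule. Of pore genes with other symbols, Nupl2 of the cytoplasmic side rose (log2 fold change 1.34) and Ranbp2 of the same side was not called (0.27). Nupl1 (now Nup58) of the central channel rose (0.60). The level of Nupl1 is uncertain, since 48.8% of its exon bases also belong to the annotated gene Gm49336 on the same strand.

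In the outer ring, Nup43 had the largest increase of all 43 genes. It is a small propeller-shaped subunit of the Y complex (chromosome 10, 7667503 to 7678881, plus strand). Nup43 was at 13.6, 12.2 and 14.2 CPM unstimulated and 50.04, 43.1 and 45.2 CPM with CL097. That is a wide gap, with a 3.46-fold rise (log2 fold change 1.79, SE 0.10, limma adjusted p = 6.93e-06). Nup85, another Y complex subunit (chromosome 11, 115564434 to 115583985, plus strand), went from 39.8, 33.3 and 33.6 CPM to 106, 96.9 and 90.6 CPM. The groups were apart, at a log2 fold change of 1.46 (SE 0.08, limma adjusted p = 5.04e-06).

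The other Y complex genes were the subunits Nup37, with a log2 fold change of 1.11 (SE 0.13), Nup133, with 1.00 (SE 0.08), Nup107, with 0.83 (SE 0.07), and Nup160, with 0.50 (SE 0.07). Nup133 and Nup107 form the stem of the Y. Nup160 lay just over the fold limit and was not called under cyclic loess (0.48) or without replicate 1 (0.45).

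The inner ring holds the channel in place. Its genes were the large scaffold subunits Nup188, with a log2 fold change of 1.27 (SE 0.07), and Nup205, with 1.12 (SE 0.06), together with Nup35, with 0.77 (SE 0.14), Nup155, with 0.70 (SE 0.07), and Nup93, with 0.51 (SE 0.07). Nup93, the linker that anchors the channel, was not called under cyclic loess (0.49) and without replicate 2 (0.47) or 3 (0.4985). Nup35 is uncertain, since 747 bases match Gm4353 at 99.3%.

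Central channel proteins carry the phenylalanine and glycine repeats through which receptors pass. Nup62 (chromosome 7, 44816088 to 44830812, plus strand) rose from 89.1, 82.7 and 74.7 CPM to 238, 196 and 203 CPM. Nup54 rose from 57.4, 56.2 and 54.2 CPM to 140.2, 136 and 147 CPM. Both had groups that did not overlap, with log2 fold changes of 1.37 (SE 0.07) for Nup62 and 1.33 (SE 0.07) for Nup54.

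A read-through symbol that joins Nup62 and its neighbour Il4i1, Nup62-il4i1, was at 0.659, 0.155 and 0.355 CPM unstimulated and 0.917, 1.17 and 0.819 CPM with CL097. These are low levels with a wide spread, and the transcript shares sequence with Nup62. The log2 fold change was 1.53 (SE 0.56, limma adjusted p = 0.0442). The call was lost in the fit with no replicate block (adjusted p = 0.0538), with no filter (0.215), with no variance trend (0.0710), and without replicate 2 (log2 fold change 0.84) or 3 (1.70).

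Among the genes of the symbol rule, those on the faces of the pore had log2 fold changes of 0.22 to 0.56. Nup153, which anchors the nuclear basket, had a log2 fold change of 0.56 (SE 0.05) and rose, while Nup50, its basket partner that helps release import cargo, had one of 0.44 (SE 0.07). On the cytoplasmic side Nup88 had one of 0.49 (SE 0.08) and its partner Nup214 one of 0.22 (SE 0.09, limma adjusted p = 0.0594). Nup98, a repeat-bearing protein found on both faces, had 0.52 (SE 0.07) and rose. Nup88 was called higher with median-centred values (0.5015) and without replicate 2 (0.56) or 3 (0.52), Nup50 without replicate 1 (0.52), and Nup98 was not called under cyclic loess (0.495) or without replicate 3 (0.44).

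The 1 membrane nucleoporin placed by the symbol rule, Nup210, was not called. Pom121, a pore membrane protein with another symbol, rose (log2 fold change 0.72, SE 0.08). Nup210 spans the pore membrane (chromosome 6, 91013068 to 91116829, minus strand) and was at 417, 431 and 449 CPM unstimulated and 371, 437 and 458 CPM with CL097. The groups overlapped, and the log2 fold change was -0.04 (SE 0.06, limma adjusted p = 0.595). Nup210l, its testis-enriched relative, was near the filter at 1.06, 0.797 and 0.941 CPM against 1.05, 0.716 and 0.659 CPM, also with overlap, and its log2 fold change was -0.23 (SE 0.35).

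Levels of different genes can be compared only per length, so CPM was divided by the exon length of each gene in kilobases (GENCODE M21), which was possible for 42 of the 43 genes. This length merges the exons of all annotated transcripts of a gene, whether or not these cells use them. Places and shares of genes depend on it. On this scale Kpnb1 was highest in both groups, at 82.6 ± 6.28 CPM per kb unstimulated and 158 ± 2.61 after CL097 (SD, n = 3). Ipo5 was next, at 59.9 ± 6.05 and 156 ± 2.38 CPM per kb. After CL097 these neighbours in the order no longer differed beyond their spread. Nup153 was in place 3 in both groups. Nup210 went from place 4 to place 11 and Xpo1 from place 6 to place 15 at log2 fold changes of -0.04 each, and Nup62 went from place 8 to place 4.

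Summed per class, levels per kb were higher in all CL097 libraries than in all unstimulated ones, for each class. The nucleoporins summed to 336 ± 9.95 CPM per kb unstimulated and 577 ± 10.97 with CL097, the importins to 378 ± 21.1 and 724 ± 15.8, and the exportins to 99.04 ± 3.28 and 145 ± 6.88 (SD, n = 3). The importin sum was 3.62 to 4.15 times the exportin sum in unstimulated and 4.84 to 5.06 times in CL097 libraries. The exportin sum holds only the 6 Xpo genes and leaves out Cse1l, an exportin with another symbol. The size of this ratio therefore depends on the symbol rule. The ratio of Kpnb1 to Xpo1, per kb, was 2.10 to 2.69 and then 4.53 to 4.90. None of these ranges overlapped between the groups. They are descriptions of the same libraries as the fold changes above and were not tested.

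Within the classes the shares of single genes differed between the groups. Kpna2 made up 18.7% to 22.1% of the summed Kpna level in unstimulated and 25.9% to 28.3% in CL097 libraries, and Kpna4 went from 18.0% to 20.2% down to 12.2% to 13.3%. Kpna3 was the most abundant adaptor in all 6 libraries, at 28.9% to 32.6%. Among the exportins, Xpo1 held 33.0% to 37.2% and then 21.5% to 24.5%, and Xpot 20.5% to 23.7% and then 29.8% to 34.5%. Among the 6 Xpo genes, Xpo1 was the most abundant per kb in each unstimulated library and Xpot in each CL097 library. Cse1l, an exportin with another symbol and 5273 merged exon bases, is not counted in these shares or in this order. This order depends on the merged exon lengths, which were 7181 bases for Xpo1 and 6033 for Xpot, against 16920 for Xpo6 and 19005 for Xpo7.

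**Figure D4:**
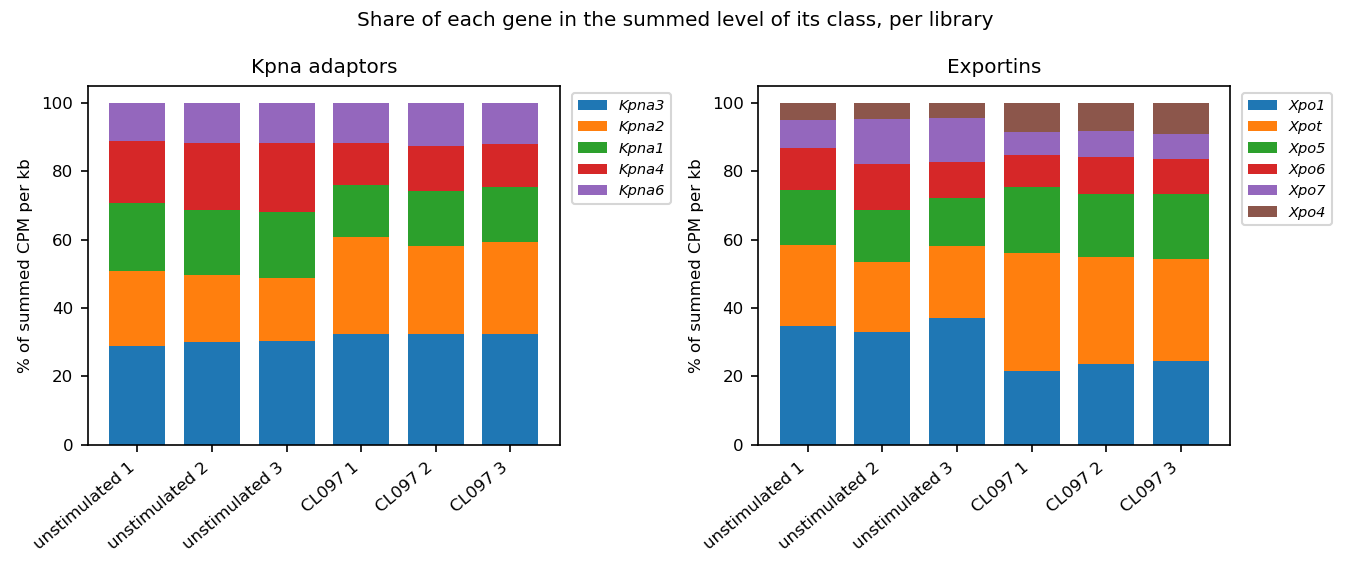
Share of each gene in the summed CPM per kb of the 5 Kpna adaptors (left) and the 6 exportins (right), one bar per library, each bar adding up to 100%. From unstimulated to CL097 libraries the Kpna4 and Xpo1 shares shrink and the Kpna2 and Xpot shares grow, in all 3 pairs.

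Other genes of the pathway were counted from lists chosen by role. One list held genes of the Ran cycle, which gives transport its direction, together with carrier cofactors. In it 9 of 10 genes rose (beside 25.9% of all genes tested), with a median log2 fold change of 1.31. The 1 exception was Phax, the adaptor for snRNA export, at 0.38 (SE 0.10). Ran itself went from 278, 221 and 250.2 CPM to 678, 601 and 627 CPM, a log2 fold change of 1.35 (SE 0.06). Rcc1, the chromatin-bound exchange factor that loads Ran with GTP, had the largest value of this list, from 41.9, 37.7 and 37.2 CPM to 153, 135 and 136 CPM. Both genes had groups far apart, and that of Rcc1 was a 3.63-fold rise (log2 fold change 1.86, SE 0.07).

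Cse1l, the exportin that returns importin alpha to the cytoplasm and whose symbol the rule did not take, went from 257, 242 and 266 CPM to 405, 380.3 and 371 CPM. It rose, with a log2 fold change of 0.60 (SE 0.06). Its cargo Kpna2, Kpna3 and Kpna6 had 1.18, 0.88 and 0.82, and the differences were not tested. Rangrf, also of the Ran list, shares 90.7% of its exon bases with the antisense gene Slc25a35, and its value is uncertain because the strand setting of the counting is not given in the sources used here.

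Of 12 other pore components listed, 11 were tested and 7 rose (beside 25.9% of all genes tested), with a median of 0.62. The largest value was that of Nupl2 (now Nup42, a cytoplasmic nucleoporin), which went from 12.4, 9.03 and 10.9 CPM to 30.02, 26.8 and 24.4 CPM (log2 fold change 1.34, SE 0.13). The smallest was that of Aaas, which docks on the membrane protein Ndc1, at 50.7, 52.0 and 42.5 CPM against 56.2, 50.1 and 48.5 CPM (0.10, SE 0.09). Ranbp2, the main filament protein of the cytoplasmic side, was at 540, 585 and 657 CPM against 652, 742 and 754 CPM, with overlap, and was not called (0.27, SE 0.06). Tpr, the main protein of the basket, was at 423, 458 and 416 CPM against 566, 622 and 592 CPM, apart but under the fold limit (0.46, SE 0.06).

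In mRNA export 6 of 20 genes rose (30%), 0 fell and 14 were not called, beside 25.9% of all genes that rose, with a median log2 fold change of 0.38. At the adjusted p alone 14 were higher and 2 lower (33.6% and 33.0% of all genes), and the groups were apart for 14 with CL097 higher and 2 with CL097 lower (33.4% and 32.4%). The number that rose was 7 without replicate 2 and 9 without replicate 3. Bulk mRNA leaves through the receptor of Nxf1 and Nxt1, which uses no Ran. Nxf1 was at 131, 148 and 132 CPM and at 171, 179 and 156 CPM, apart yet not called (0.30, SE 0.06). Nxt1, its small partner, had the largest value, from 15.3, 12.8 and 18.1 CPM to 36.2, 34.3 and 32.7 CPM (1.18, SE 0.13). Mcm3ap, which encodes the scaffold of the TREX-2 export complex, had the smallest, from 95.9, 98.4 and 94.4 CPM to 75.5, 74.4 and 69.1 CPM (-0.40, SE 0.07), with all CL097 libraries below.

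The promoter stretches printed above belong to genes of all 3 classes. The E-box CACGTG was found in 7 of 33 genes (21.2%), in 12.2% of the 8861 tested genes with a window, in 15.3% of the tested genes that rose and in 8.09% of the 27025 genes of the whole table. All 7 genes rose, and their median log2 fold change was 1.18. Over all tested genes with a window, 348 of the 1080 with an E-box rose, beside 2268 of all 8861. Of the 26 genes without one 15 rose, with a median of 0.54. Window and motif were chosen with the fold changes known, so this is a description with no test. The sequence CCGGAAGT, a known ETS factor site, searched on both strands, was found in 4 genes (Ipo4, Nup155, Nup54, Tnpo3), or 12.1%, and in 9.52% of tested genes. A match of letters does not show that a factor was bound, and no binding was measured here.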

How the data were processed

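RNA-seq was analysed for 3 unstimulated and 3 CL097 libraries. Per the submitters' processing notes, the tools were STAR 2.6.1a, featureCounts (Subread 2.0.1), limma, Trim Galore 0.6.5 and FastQC 0.11.7, and the build was mm10. The authors deposited log2 CPM after voom with quantile normalization. For the annotation and strand setting: not given in the sources used here. Depth is unknown, and neither counting intervals nor floors could be computed.

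Genes at log2 CPM of at least -1 in at least 3 libraries were fitted in limma 3.58.1 (R 4.3.3) with group and replicate number as terms and a variance trend, with no pseudocount. Two-sided p-values were Benjamini-Hochberg adjusted over all 11844 genes, and calls used the study's thresholds (0.05 and a log2 fold change of 0.5). No label ties a number to a mouse. Deviations from group means correlated between libraries of one number (0.568, 0.326 and 0.458, each over the limit of 0.1). Unstimulated 3 with CL097 2 (0.172) and unstimulated 2 with CL097 3 (0.209) were also over it, so the limit does not single out the pairs. The other values between numbers were -0.485 to -0.347. Each library had its highest value with its own number, and numbers were taken as pairs as planned. Genes not constant across libraries numbered 17935, of which 2655 to 3108 had one identical value in both libraries of a number, against 347 to 396 between numbers; 0 of the 43 members did, and no source used here describes why. Where the samples share cultures or mice, p-values measure only the spread between these samples. The fit was tested on simulated data.

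All kept members are named. Values per library are given for Kpnb1, Xpo1 and, per class, the 3 largest and 2 smallest log2 fold changes, and for Ran, Rcc1, Cse1l, Ranbp2, Tpr, Nxf1 and the extremes of each list. Nup62 and Nup54 were added after their values were seen. Members and lists were chosen with earlier results of these data known. Coordinates and exon lengths are from GENCODE M21 (44 of 45 members matched). Near-identical copies were transcripts aligned over at least 500 bases at 90% identity or more. Alternatives were no replicate block, leaving out each number, median centring, cyclic loess, log2(CPM + 1), other filters, no variance trend and a robust fit. Some marker genes are not reported here and were left out of the marker sums.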

Additional observations from a re-analysis of the deposited data

How the results depend on the processing

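None of the 29 genes that rose changed direction under any of the alternatives run. Of the genes not called, Xpo1 (0.011 without replicate 3), Xpo7 (0.0070 without replicate 2 and 0.036 without replicate 3) and Nup210 (0.02 without replicate 1) went to the other side of 0. The number that rose was 29 with the pairing and 28 with no replicate block, 26 under cyclic loess, 30 with median-centred values, 27 with no filter on low values and 28 with a filter at a log2 CPM of 1 (which left out Nup62-il4i1 and Nup210l), and 27 to 29 when a number was left out. Numbers were left out as pairs, because a lone library carries no weight in a paired fit. The number that fell was 0, except for 1 without replicate 1 (Ipo8), a range of 0 to 1. On the log2(CPM + 1) scale, which shrinks changes of low genes by construction, the median log2 fold change was 0.70 for all 43 genes and 0.69 for the nucleoporins, against 0.82 and 0.77. Leaving out a number gave 0.70 to 0.82 for the nucleoporins, 0.81 to 0.90 for the importins and 0.79 to 0.86 for all 43, and the cause was not tested. Gains and losses of calls of the 43 genes stand beside each gene above, and the block changed no call other than that of Nup62-il4i1. Depth is unknown, so how far it limits the low genes (Nup62-il4i1, Nup210l) was not tested. With 3 libraries a group, an exact permutation test could not reach 0.05, and p-values rest on the model across genes.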
